A study of Rattus norvegicus with 9 samples.

Results

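The circadian clock genes described here were the 10 rows of the expression tables with the symbols Per1, Per2, Per3, Nr1d1, Nr1d2, Dbp, Tef, Ciart, Cry1 and Clock. All 10 were found among 23026 genes, and all 10 passed the filter on low counts that left 16874 genes for testing. Bone RNA came from female Sprague–Dawley rats, bought at an age of 8 weeks, in 3 groups of 3 libraries, described in the methods as independent biological replicates. Sham rats were operated on without ovariectomy, with fat beside the ovary removed, and received carboxymethyl cellulose (CMC-Na) as vehicle, given in the labels as 1%, 2% and 3% for replicates 1, 2 and 3 and as 1% in the methods. OVX rats underwent bilateral ovariectomy, a model of postmenopausal bone loss, and received 1% CMC-Na. OVX-AS-IV-High rats were also ovariectomized and received astragaloside IV (AS-IV) at 80 mg/kg, prepared in 1% CMC-Na according to the methods. Gavage began 6 weeks after surgery and lasted 8 weeks. The sources used here give a light and dark cycle, but no time of day at which the bones were taken.

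Libraries held between 34874880 and 37298250 counts. The labels name the tissue as bone, and all markers of osteoblasts (6 of 6), osteocytes (4 of 4) and osteoclasts (5 of 5) had more than 3 counts in every library. The tissue also held other cells. Summed skeletal muscle markers (14 of 15 in the table, none at 0) lay between 2050 and 11900 CPM in Sham, 2050 and 4360 CPM in OVX, and 733 and 6140 CPM in OVX-AS-IV-High. In bulk tissue, fewer cells of a type and less RNA per cell cannot be told apart.

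The molecular clock is a feedback loop that runs in most tissues, bone included. The CLOCK protein pairs with BMAL1, or NPAS2 with BMAL1, and binds E-boxes to activate the Per and Cry genes, the Nr1d genes and the output genes Dbp, Tef and Ciart. PER and CRY proteins then block their own activators, while the REV-ERB proteins encoded by Nr1d1 and Nr1d2 repress Bmal1, Npas2 and Clock through ROR elements. The arms therefore peak at nearly opposite times of day, with Bmal1 and Npas2 low when Dbp and the Nr1d genes are high.

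RefSeq promoter windows, from 250 bases before to 50 bases after the start of transcription in build GRCr8, were at hand for 9 of the 10 genes (2 windows each for Nr1d1 and Clock) and not for Cry1. They were searched on both strands for the E-box CACGTG, the E-prime box CACGTT, the D-box TTATGTAA and a second form TTATGCAA, the ROR element core TAGGTCA and the cAMP response element TGACGTCA. None of the matches overlapped another. An E-box stood in the windows of 3 members and in 6.42% of 33469 promoters, an E-prime box in those of 2 members and in 4.83% of promoters, and a D-box in that of 1 member and in 0.893% of promoters. The second D-box form (0.863% of promoters), the ROR core (2.63%) and the cAMP response element (1.83%) matched no member. Windows of 5 members (Per1, Per3, Nr1d2, Dbp and Clock) held none of these letters. A match is a stretch of letters and not a measured binding site. The 5 windows below show, in capitals, where the matches lie in 4 members that were higher in Sham and in the oppositely ordered Bmal1, each read 5′ to 3′ on the strand of its gene.
Ciart, chr2:186112197-186112496, minus strand: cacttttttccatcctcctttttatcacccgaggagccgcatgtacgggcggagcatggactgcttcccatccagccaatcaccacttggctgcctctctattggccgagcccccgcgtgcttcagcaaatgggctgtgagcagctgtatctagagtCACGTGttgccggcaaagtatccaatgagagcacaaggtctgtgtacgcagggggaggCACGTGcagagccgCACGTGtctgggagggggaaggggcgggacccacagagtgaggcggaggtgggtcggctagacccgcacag
Tef, chr7:115206577-115206876, plus strand: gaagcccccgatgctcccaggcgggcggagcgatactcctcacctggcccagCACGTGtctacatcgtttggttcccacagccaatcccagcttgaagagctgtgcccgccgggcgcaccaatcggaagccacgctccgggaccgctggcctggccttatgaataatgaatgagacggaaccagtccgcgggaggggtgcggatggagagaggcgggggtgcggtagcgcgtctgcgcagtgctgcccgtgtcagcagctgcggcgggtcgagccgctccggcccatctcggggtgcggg
Nr1d1, chr10:84229405-84229704, minus strand: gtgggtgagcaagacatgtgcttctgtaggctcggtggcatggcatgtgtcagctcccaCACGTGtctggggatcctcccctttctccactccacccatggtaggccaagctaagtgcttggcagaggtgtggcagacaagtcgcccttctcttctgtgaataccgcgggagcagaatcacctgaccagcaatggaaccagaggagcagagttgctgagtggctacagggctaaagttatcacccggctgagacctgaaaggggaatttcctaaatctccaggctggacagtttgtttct
Per2, chr9:99496944-99497243, minus strand: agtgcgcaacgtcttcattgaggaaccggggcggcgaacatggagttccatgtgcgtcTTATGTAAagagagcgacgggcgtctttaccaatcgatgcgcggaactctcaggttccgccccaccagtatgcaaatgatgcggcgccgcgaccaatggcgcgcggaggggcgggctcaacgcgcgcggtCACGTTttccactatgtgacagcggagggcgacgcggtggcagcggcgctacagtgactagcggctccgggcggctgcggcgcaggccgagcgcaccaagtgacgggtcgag
Bmal1, chr1:176766078-176766377, plus strand: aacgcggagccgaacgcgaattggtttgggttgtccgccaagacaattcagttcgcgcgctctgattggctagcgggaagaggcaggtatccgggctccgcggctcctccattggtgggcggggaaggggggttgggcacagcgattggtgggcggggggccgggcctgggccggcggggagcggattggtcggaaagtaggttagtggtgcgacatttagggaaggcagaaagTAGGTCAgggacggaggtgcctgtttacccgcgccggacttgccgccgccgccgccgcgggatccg

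In Ciart the E-boxes began 93, 35 and 21 bases before the start of transcription. Tef had its E-box at 198 bases and this Nr1d1 window at 191 bases before the start. The other Nr1d1 window had an E-prime box 174 bases before its own start. Per2 carried a D-box at 192 bases and an E-prime box at 62 bases before the start, and Bmal1 a ROR core at 16 bases before it.

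Most clock genes separated Sham bone from ovariectomized bone. In OVX vs. Sham, 7 of 10 members (Per2, Per3, Nr1d1, Nr1d2, Dbp, Tef and Ciart) were lower at an unadjusted p under 0.05 by edgeR, where 8.28% of all genes tested were lower. None was higher, against 8.16% of all genes. The median log2 fold change (log2FC) of the 10 genes was -1.066, beside -0.006 for all genes tested. The change was largest in Nr1d1, at 2.92-fold higher in Sham, and smallest of the 7 in Per3, at 1.81-fold. With the fold threshold added, an absolute log2FC over 1, 5 members were called (Per2, Nr1d1, Dbp, Tef and Ciart), against 3.11% of all genes. No gene of the whole table (0.0%) reached an adjusted p under 0.05 in this edgeR fit, which called 2775 genes at an unadjusted p under 0.05. The smallest adjusted p was 0.118, for Nr1d1. DESeq2 gave an adjusted p under 0.05 to 834 genes, 6 of them members (Per2, Per3, Nr1d1, Nr1d2, Tef and Ciart). Each of the 7 genes had every OVX library below every Sham library, as did 10.6% of all genes. Their two-sided exact permutation p was 0.1, the lowest that 3 libraries in each group allow.

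**Figure D1:**
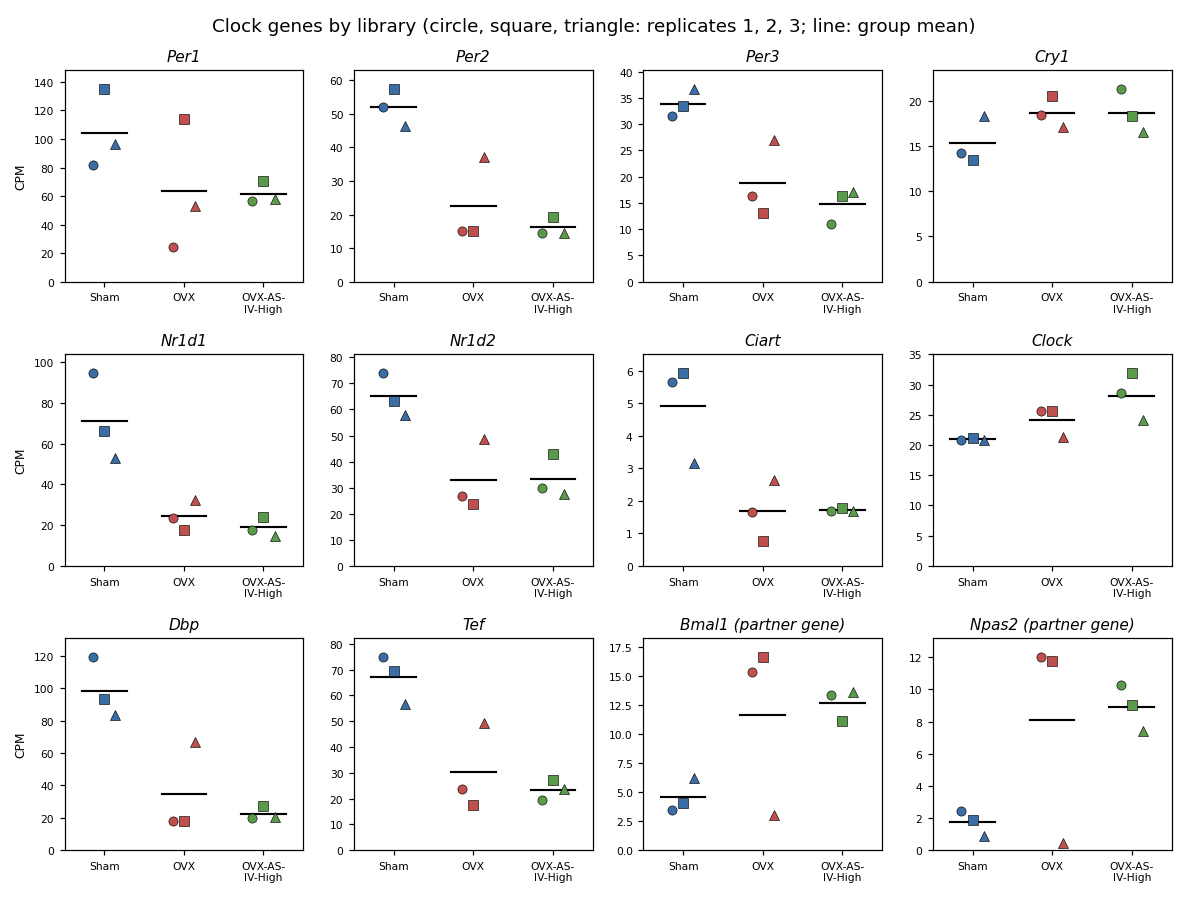
CPM (counts scaled by library size) of the 10 clock genes and of 2 partner genes, Bmal1 and Npas2, in each library, with circles, squares and triangles for replicates 1, 2 and 3 and a line at each group mean. In Dbp, OVX replicate 3 (red triangle) lies at 67.0 CPM, between 83.4 to 119 CPM in Sham and 17.9 to 27.2 CPM in the other ovariectomized libraries, and in Bmal1 it has the lowest value of all, 2.98 CPM.

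Levels between genes can be compared only per length, in FPKM. In Sham, Dbp had the highest mean level, 59.3 ± 12.2 FPKM (SD, n = 3), followed by Nr1d1 at 25.2 ± 7.97 FPKM. Nr1d2 (14.1 FPKM), Per1 (12.3 FPKM) and Tef (11.2 FPKM) came next, and the ranges of neighbours among these 3 overlapped. Per2 stood at 7.85 FPKM, below every Tef library. Cry1 (5.21 FPKM) and Per3 (5.20 FPKM) overlapped, as did Clock (1.84 FPKM) and Ciart (1.58 FPKM), the lowest of the 10.

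Per2 and Per3 encode repressors of the negative arm. Per2 stood at 52.1, 57.4 and 46.5 CPM in Sham replicates 1, 2 and 3, at 15.2, 15.2 and 37.2 CPM in OVX, and at 14.5, 19.4 and 14.6 CPM in OVX-AS-IV-High. OVX replicate 3 was thus 2.44 times the mean of the other OVX libraries, yet below every Sham library. The OVX vs. Sham log2FC of Per2 was -1.21 ± 0.321 (SE), with an unadjusted p = 0.00424 and an adjusted p = 0.157 by edgeR. Per3 stood at 31.5, 33.5 and 36.7 CPM in Sham, 16.4, 13.1 and 26.9 CPM in OVX, and 11.0, 16.3 and 17.1 CPM in OVX-AS-IV-High. It had the same order, with OVX replicate 3 nearest to Sham, and a log2FC of -0.85 ± 0.260 (edgeR, unadjusted p = 0.00905, adjusted p = 0.184).

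Nr1d1 and Nr1d2 encode REV-ERBα and REV-ERBβ, nuclear receptors that bind heme and repress transcription. Nr1d1 stood at 94.6, 66.4 and 52.8 CPM in Sham, 23.4, 17.8 and 32.1 CPM in OVX, and 17.8, 24.2 and 14.8 CPM in OVX-AS-IV-High. Its widest gap on the log2 scale, 1.64-fold, lay between the 6 ovariectomized libraries and the 3 Sham libraries, so OVX replicate 3 was on the side of the other ovariectomized libraries. The OVX vs. Sham log2FC was -1.55 ± 0.280, with the smallest unadjusted p of the members, 0.000326 by edgeR. Nr1d2 stood at 73.9, 63.3 and 57.8 CPM in Sham, 26.8, 23.6 and 48.5 CPM in OVX, and 29.7, 43.0 and 27.7 CPM in OVX-AS-IV-High. In this gene OVX-AS-IV-High replicate 2 stood with OVX replicate 3 above the other 4 ovariectomized libraries, and the log2FC was -0.98 ± 0.272 (edgeR, unadjusted p = 0.00541, adjusted p = 0.165).

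Dbp and Tef encode PAR bZIP activators that carry the rhythm to output genes through D-boxes. Dbp stood at 119, 93.1 and 83.4 CPM in Sham, 17.9, 18.1 and 67.0 CPM in OVX, and 19.5, 27.2 and 20.4 CPM in OVX-AS-IV-High. OVX replicate 3 had 3.72 times the mean of OVX replicates 1 and 2, the widest departure among the members. With that library included, the OVX vs. Sham log2FC was -1.52 ± 0.466 (edgeR, unadjusted p = 0.00936, adjusted p = 0.186). Tef stood at 74.8, 69.5 and 56.8 CPM in Sham, 23.6, 17.5 and 49.3 CPM in OVX, and 19.5, 27.2 and 23.6 CPM in OVX-AS-IV-High. Again Sham was highest and OVX replicate 3 next, with a log2FC of -1.15 ± 0.330 (edgeR, unadjusted p = 0.00645, adjusted p = 0.167).

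Ciart encodes a repressor of the CLOCK and BMAL1 pair and was the least abundant member. It stood at 5.66, 5.93 and 3.16 CPM in Sham, 1.66, 0.765 and 2.63 CPM in OVX, and 1.68, 1.79 and 1.68 CPM in OVX-AS-IV-High. Counts behind these values ran from 29 to 206. Sham replicate 3 and OVX replicate 3 lay close together, and the log2FC was -1.54 ± 0.424 (edgeR, unadjusted p = 0.00513, adjusted p = 0.163).

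Cry1, a repressor whose RNA peaks later than that of the Per genes, and Clock, the activator, did not follow the others. Cry1 stood at 14.2, 13.4 and 18.3 CPM in Sham, 18.4, 20.5 and 17.1 CPM in OVX, and 21.3, 18.3 and 16.5 CPM in OVX-AS-IV-High. The groups overlapped, at an OVX vs. Sham log2FC of 0.29 ± 0.155 (edgeR, unadjusted p = 0.0952). Without Sham replicate 3, its highest Sham library, the log2FC was 0.44 (unadjusted p = 0.0182, adjusted p = 0.134). Clock stood at 20.8, 21.2 and 20.9 CPM in Sham, 25.6, 25.6 and 21.3 CPM in OVX, and 28.6, 31.9 and 24.1 CPM in OVX-AS-IV-High. Its Sham libraries were nearly equal, with a within-group SD of 0.0130 on the log2 scale at percentile 0.314 of all genes tested. Every OVX library lay above every Sham library, as in 12.7% of all genes, by a log2FC of 0.21 ± 0.124 that missed the threshold (edgeR, unadjusted p = 0.13).

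Per1 differed from the other Per genes. It stood at 81.7, 135 and 96.3 CPM in Sham, 24.0, 114 and 52.7 CPM in OVX, and 56.5, 70.5 and 58.0 CPM in OVX-AS-IV-High. OVX replicate 2, among the lowest libraries for Per2, Dbp and Nr1d1, had the second highest Per1 value of all 9. The OVX vs. Sham log2FC of -0.72 ± 0.450 did not pass (edgeR, unadjusted p = 0.145), and without OVX replicate 2 it was -1.44 (unadjusted p = 0.00261, adjusted p = 0.308). Per1 is known as a clock gene that glucocorticoids also induce directly. Across a list of 12 glucocorticoid-responsive genes, the mean standardized log2 CPM was 0.05, 1.20 and 0.52 for the Sham libraries, -1.11, 1.03 and -0.45 for OVX, and -0.38, -0.05 and -0.81 after AS-IV. Ranked from lowest to highest, Per1 and this list gave the same place to 6 of 9 libraries, with Sham replicate 2 and OVX replicate 2 at the top and OVX replicate 1 at the bottom of both. Tsc22d3, which encodes the glucocorticoid-induced leucine zipper GILZ, stood at 169, 316 and 260 CPM in Sham, 76.8, 286 and 116 CPM in OVX, and 109, 216 and 111 CPM in OVX-AS-IV-High. Not all genes of the list had this order. Fkbp5 was highest in Sham replicate 3 (216 CPM), and OVX replicate 1 (114 CPM) lay above Sham replicate 1 (104 CPM). For Zbtb16, OVX replicate 1 (13.5 CPM) also lay above Sham replicate 1 (12.9 CPM). Tsc22d3, Fkbp5, Zbtb16 and the likeness of Per1 to the list were singled out here after the values were seen. No hormone was measured in these libraries, and the part of glucocorticoids in the Per1 values was not tested.

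**Figure D2:**
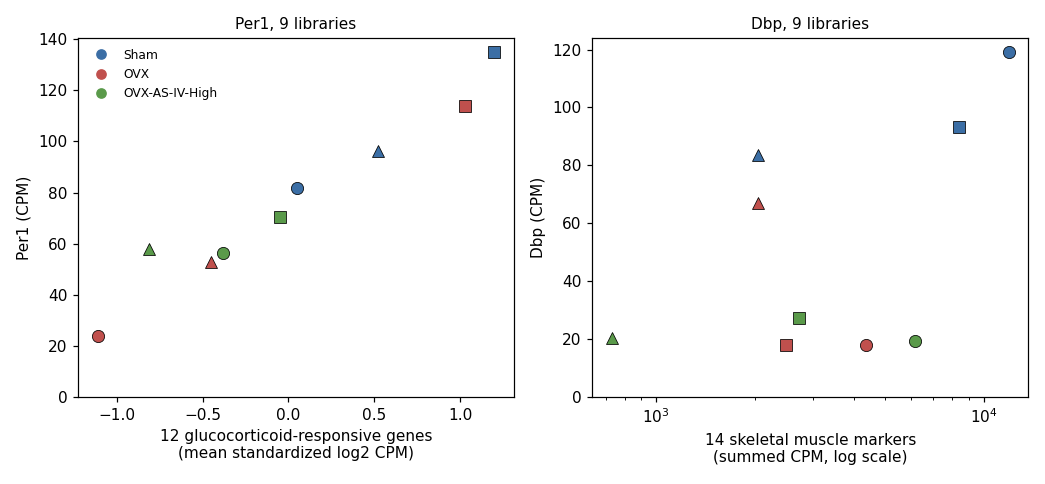
Left, Per1 (CPM) against the mean standardized log2 CPM of 12 glucocorticoid-responsive genes in 9 libraries, and right, Dbp (CPM) against the summed CPM of 14 skeletal muscle markers on a log axis, with colours for groups and circles, squares and triangles for replicates 1, 2 and 3. Per1 is highest in Sham replicate 2 (135 CPM) and OVX replicate 2 (114 CPM), which also have the highest list means. Sham and OVX replicates 3 have 83.4 and 67.0 CPM of Dbp at a muscle sum of 2050 CPM. OVX replicate 2 has 18.1 CPM of Dbp at a muscle sum of 2490 CPM. Sham replicates 1 and 2 have 119 and 93.1 CPM of Dbp at muscle sums of 11900 and 8420 CPM.

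The members were compared with 12 other genes of the clock loop, of which 11 were tested; the remaining one, Rorb, had at most 3 counts in some library. In OVX vs. Sham, 4 were lower and 2 were higher at an unadjusted p under 0.05, beside 8.28% and 8.16% of all genes. Hlf, a PAR bZIP factor like Dbp and Tef, was lower at a log2FC of -1.11 ± 0.302 (edgeR, unadjusted p = 0.00468). Also lower were Cry2 (-0.58), a partner of the PER proteins, and Bhlhe40 (-0.60) and Bhlhe41 (-0.95), which encode the E-box repressors DEC1 and DEC2. The 2 higher genes were the activators Bmal1 and Npas2. Bmal1 stood at 3.46, 4.08 and 6.23 CPM in Sham, 15.3, 16.6 and 2.98 CPM in OVX, and 13.4, 11.1 and 13.6 CPM in OVX-AS-IV-High. Npas2 stood at 2.45, 1.88 and 0.845 CPM in Sham, 12.0, 11.8 and 0.461 CPM in OVX, and 10.3, 9.02 and 7.39 CPM in OVX-AS-IV-High. In both genes 5 ovariectomized libraries were high, and OVX replicate 3 was the lowest of all 9 libraries. Because of that library the groups overlapped, and the OVX vs. Sham log2FC was 1.34 ± 0.522 for Bmal1 (edgeR, unadjusted p = 0.0294) and 2.23 ± 0.875 for Npas2 (unadjusted p = 0.0305). Without OVX replicate 3 they were 1.80 (edgeR, unadjusted p = 7.52e-05) and 2.79 (unadjusted p = 6.11e-05), with adjusted p-values of 0.215 and 0.21. That library was singled out after the values were seen, so these p-values are only a description. The Bmal1 call was lost without Sham replicate 1 or 2 or OVX replicate 1 or 2 (edgeR, unadjusted p from 0.0777 to 0.111), and the Npas2 call without Sham replicate 2 or 3 or OVX replicate 1 or 2 (unadjusted p from 0.0659 to 0.0885). The Bhlhe41 call was lost without Sham replicate 1 (log2FC -0.71, unadjusted p = 0.0692). Nfil3, a repressor that binds D-boxes, had a log2FC of 0.01 ± 0.202 (edgeR, unadjusted p = 0.974).

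**Figure D3:**
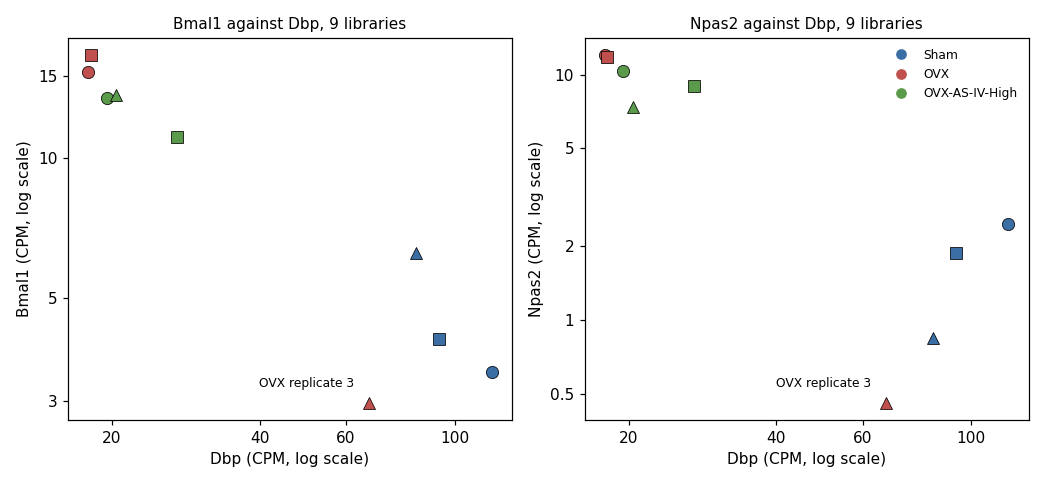
Bmal1 (left) and Npas2 (right) against Dbp in 9 libraries, in CPM on log axes, with colours for groups and circles, squares and triangles for replicates 1, 2 and 3. The libraries form 1 set of 5 with low Dbp (17.9 to 27.2 CPM) and high Bmal1 and Npas2, and 1 set of 4 with high Dbp and low Bmal1 and Npas2, which holds OVX replicate 3 beside the 3 Sham libraries.

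To compare clock phase between libraries, the log2 ratio of Dbp to Bmal1, genes of opposite arms, was taken within each library. It was 5.11, 4.51 and 3.74 in Sham replicates 1, 2 and 3. The OVX libraries had 0.23, 0.12 and 4.49, and the treated libraries 0.54, 1.29 and 0.58. On this measure 5 ovariectomized libraries lay between 0.12 and 1.29, whereas OVX replicate 3 lay within the Sham range. The log2 ratio of Nr1d1 to Bmal1 was 4.77, 4.03 and 3.08 for the Sham libraries, 0.62, 0.10 and 3.43 for OVX, and 0.41, 1.12 and 0.12 after AS-IV, and divided the libraries in the same way. The log2 ratio of Per2 to Nr1d1, genes of neighbouring phase, was -0.86, -0.21 and -0.18 for the Sham libraries, -0.62, -0.22 and 0.21 for OVX, and -0.29, -0.32 and -0.02 after AS-IV. It did not separate the groups, and OVX replicate 3 had the highest value of all. No phase in hours was estimated. Without a time of harvest, a later or earlier clock, a harvest at another time of day and a change in clock gene level cannot be told apart between Sham and the ovariectomized groups.

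OVX replicate 3 stood apart from the other ovariectomized libraries across the members. In 7 of 10 members it was above all 5 of them, as in 14.9% of all genes tested, and in 1 (Clock) it was below all 5, as in 12.3% of all genes. No other ovariectomized library was above the remaining 5 in more than 1 member. This library was singled out after the values were seen. On the log2 scale, the widest gap between neighbouring libraries divided the same set of 5 from the same set of 4 in Per2, Per3, Dbp and Tef, in Clock with the sets in reverse, and in Hlf, Bmal1 and Npas2 outside the members. Still, in 8 members OVX replicate 3 lay below every Sham library, from 1.26-fold below the Sham mean in Per3 to 2.22-fold in Nr1d1. In Nr1d1 this distance was wider than the 1.56-fold by which it exceeded the mean of the other OVX libraries, and in Cry1 it lay within the Sham range.

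The OVX group had the highest SD in 8 of the 10 members. The SD of log2 CPM over the OVX libraries was 1.09 in Dbp, at percentile 96.5 of all genes tested, 0.768 in Tef (percentile 91.7) and 0.741 in Per2 (percentile 91.1). In Per1 it was 1.12 (percentile 96.8), with OVX replicate 3 between the other OVX libraries, and in Nr1d1 it was 0.426, beside 0.423 in Sham. For Dbp it was 0.264 in Sham (percentile 55.9) and 0.260 in OVX-AS-IV-High (percentile 58.3). Bmal1 and Npas2 had OVX SDs of 1.38 and 2.62, at percentiles 98.3 and 99.8. Cry1 and Clock were the exceptions. Cry1 had an SD of 0.130 in OVX and 0.236 in Sham, and Clock an SD of 0.153 in OVX, below the 0.203 of the treated group.

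Without OVX replicate 3, the OVX vs. Sham changes were larger in 9 of the 10 members, all but Per1. Dbp then had a log2FC of -2.45 (edgeR, unadjusted p = 1.62e-06, adjusted p = 0.0279) and Per2 of -1.77 (unadjusted p = 3.72e-06, adjusted p = 0.032). These were the only 2 of 17172 genes tested with an adjusted p under 0.05 in that fit. OVX replicate 3 was singled out from the values of these same genes. The p-values without it are therefore a description and not separate evidence. The same 7 members were lower at an unadjusted p under 0.05 with and without this library.

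In OVX-AS-IV-High vs. OVX, no member passed an unadjusted p under 0.05 in either direction by edgeR or by DESeq2. Over all genes, edgeR called 4.42% higher and 2.03% lower, and 0.83% with the fold threshold added. No member had its groups apart, against 6.38% of all genes apart and higher and 6.36% apart and lower. The largest difference was that of Dbp, at a log2FC of -0.62 ± 0.462 (edgeR, unadjusted p = 0.212). For Clock it was 0.22 ± 0.124 (unadjusted p = 0.104), and 0.32 without OVX-AS-IV-High replicate 3 (unadjusted p = 0.0261, adjusted p = 0.486), the lowest AS-IV library for this gene. In 8 of the 10 members the sign of the log2FC in this comparison changed when 1 library was left out. Nr1d1 (-0.58 to -0.12) and Clock (0.12 to 0.32) kept theirs. Without OVX replicate 3 the log2FC of Dbp was 0.31, of Tef 0.19, of Per2 0.09 and of Per3 0.01, all of opposite sign to the values with it (-0.62, -0.36, -0.48 and -0.34). No gene had an adjusted p under 0.05 by edgeR in this comparison (0.0%; 1089 genes at an unadjusted p under 0.05), and DESeq2 gave 32, none of them a member.

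A comparison of OVX-AS-IV-High with Sham was added after the data were seen. It uses the same Sham libraries as OVX vs. Sham, and both comparisons rest on them. Here 7 members were lower (8.48% of all genes) and Clock was higher (9.17%), with 6 members past the fold threshold as well (3.15%). Dbp had the largest change, 4.41-fold higher in Sham (log2FC -2.14 ± 0.477, edgeR, unadjusted p = 0.00138). Nr1d1 followed at -1.91 ± 0.283 with the smallest adjusted p, 0.0639, and Per2 at -1.68 ± 0.326 (adjusted p = 0.10). Clock was 1.35-fold higher than in Sham (log2FC 0.43 ± 0.124, edgeR, unadjusted p = 0.00686, adjusted p = 0.145). Every treated library lay below every Sham library in 8 members, Per1 included (10.3% of all genes), and above in Clock (9.61%). Per1 passed here only without OVX replicate 1 or 2 among the fits that left out a library (log2FC -0.76, unadjusted p = 0.0279 and 0.0302), and Cry1 without Sham replicate 3 (0.44, unadjusted p = 0.0176). No gene reached an adjusted p under 0.05 by edgeR (0.0%; 2978 genes at an unadjusted p under 0.05), whereas DESeq2 gave 1021 genes, 8 of them members. Other edgeR fits did give members an adjusted p under 0.05. Per3 and Nr1d1 passed with the muscle sum as covariate (166 genes in all). Per2, Nr1d1, Dbp and Tef passed with the replicate block in a fit of only these 2 groups (33 genes). Per2 and Dbp passed without OVX replicate 3 (5 genes), a library singled out after the values were seen. In a test of any difference among the 3 groups, 8 members passed an unadjusted p under 0.05 (16.5% of all genes) and none an adjusted p under 0.05 by edgeR (0.0%).

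**Figure D4:**
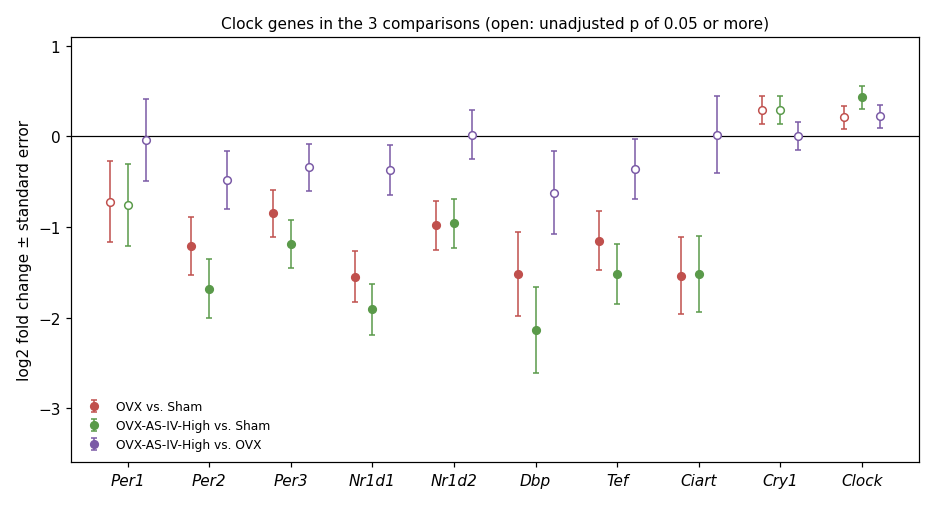
Log2 fold changes ± standard error of the 10 clock genes from edgeR in the 3 comparisons, with filled points at an unadjusted p under 0.05 and open points otherwise. The same 7 genes lie below 0 with filled points in both comparisons with Sham, from -0.85 to -2.14, and all 10 points of OVX-AS-IV-High vs. OVX are open, from -0.62 to 0.22.

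Genes around the loop were taken from 4 lists. None of the 8 kinases and ligases that modify clock proteins passed an unadjusted p under 0.05 in any of the 3 comparisons, and their median log2FC in OVX vs. Sham was -0.072. Of 10 clock-controlled output genes, 2 were lower in OVX vs. Sham and none higher, beside 8.28% and 8.16% of all genes. Usp2, a deubiquitinase, had a log2FC of -1.32 ± 0.384 (edgeR, unadjusted p = 0.00713), and Tspan4, a tetraspanin, of -0.67 ± 0.130 (unadjusted p = 0.00055). Of the 12 glucocorticoid-responsive genes, Zbtb16 (-1.05) and Dusp1 (-0.97) were lower in OVX vs. Sham and none was higher, against the same background. In OVX-AS-IV-High vs. Sham, 5 of the 12 were lower (8.48% of all genes) and none was higher (9.17%). There all 12 had a log2FC below 0, with a median of -0.712. Immediate early genes respond within minutes to many stimuli. All 8 of those listed were lower in OVX vs. Sham at an unadjusted p under 0.05 (8.28% of all genes). At the same threshold 5 (Fos, Junb, Egr1, Ier2 and Nr4a1) were higher in OVX-AS-IV-High vs. OVX (4.42% of all genes). The smallest adjusted p of the 8 genes by edgeR was 0.153 in the first comparison and 0.652 in the second. Their summed level was 355 to 403 CPM in Sham, 225 to 291 CPM in OVX and 314 to 419 CPM in OVX-AS-IV-High. Beside the immediate early genes, OVX-AS-IV-High vs. OVX had calls in 2 clock-controlled output genes, both lower (2.03% of all genes): Tspan4 (log2FC -0.43 ± 0.13, edgeR, unadjusted p = 0.00875) and Ppard (-0.27 ± 0.116, unadjusted p = 0.0425), which encodes the nuclear receptor PPARδ. The adjusted p-values were 0.652 and 0.765.

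Markers of other cells were set beside the clock genes. Skeletal muscle markers had a median log2FC of -1.236 in OVX vs. Sham, with 14 of 14 below 0 and none past an unadjusted p under 0.05. With the muscle sum as a covariate, 7 members had an unadjusted p under 0.05 in OVX vs. Sham, as without it, and 8 in OVX-AS-IV-High vs. Sham. Sham replicates 1, 2 and 3 had muscle sums of 11900, 8420 and 2050 CPM, with 119, 93.1 and 83.4 CPM of Dbp. The OVX libraries had sums of 4360, 2490 and 2050 CPM, with 17.9, 18.1 and 67.0 CPM of Dbp. In OVX-AS-IV-High the sums were 6140, 2720 and 733 CPM, with 19.5, 27.2 and 20.4 CPM of Dbp. Dbp thus had the order of the muscle sum in Sham and not in the other groups. All 14 muscle markers were lower in OVX vs. Sham, so the covariate fit cannot separate muscle content from group. The part of skeletal muscle in the clock gene values was not tested. Adipocyte markers (6 of 6 in the table, none at 0) summed to 274 to 396 CPM in Sham, 453 to 626 CPM in OVX and 366 to 662 CPM in OVX-AS-IV-High. In OVX vs. Sham, 5 of 6 were higher at an unadjusted p under 0.05 (8.16% of all genes). B lineage markers (5 of 6 in the table, none at 0) summed to 563 to 759 CPM in Sham, 982 to 1060 CPM in OVX and 687 to 1020 CPM in OVX-AS-IV-High. By the same threshold, 5 of 5 were higher in OVX vs. Sham (8.16% of all genes). OVX replicate 3 had 609 CPM of adipocyte markers and 1030 CPM of B lineage markers, beside 453 and 626 CPM and 982 and 1060 CPM in OVX replicates 1 and 2. It had the highest sum of osteocyte markers of all 9 libraries, 671 CPM, against 225 and 341 CPM in OVX replicates 1 and 2 and 397 to 448 CPM in Sham. Osteoclast markers also had their highest sum in this library, 2600 CPM, against 1370 and 2370 CPM in OVX replicates 1 and 2. They summed to 965 to 2140 CPM in Sham and 1370 to 2520 CPM in OVX-AS-IV-High. The neutrophil markers of OVX replicate 3 (7 of 7 in the table, Ltf at 0 in 1 or more libraries) summed to 16800 CPM. OVX replicates 1 and 2 had 13600 and 12600 CPM. Sham had 10400 to 14900 CPM, and OVX-AS-IV-High replicates 1, 2 and 3 had 19300, 16300 and 14500 CPM. The part of adipocytes, B lineage cells, osteocytes, osteoclasts and neutrophils in the clock gene values was not tested.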

How the data were processed

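Bone mRNA of 9 rats was sequenced, 3 libraries per group. According to the methods, the authors cleaned reads with NGS QC Toolkit, aligned them (Tophat, Bowtie2) and used eXpress for quantification. The submitters' processing notes name the build mRatBN7.2. The deposited tables hold counts as whole numbers, not normalized, and FPKM values for the same genes. These FPKM were the counts rescaled, since the gene length implied by both tables agreed within 1% in all 11928 genes that reached 100 counts in every library. Differences were tested by edgeR (version 4.0.16, R 4.3.3), using quasi-likelihood F tests on TMM-normalized libraries, filterByExpr with a minimum count of 10, and a model over all 9 libraries, with Benjamini-Hochberg adjustment over the 16874 genes tested. The common biological coefficient of variation was 0.256. CPM are counts scaled by library size after TMM, and log2 CPM used a prior count of 2. Floors were set at 3 counts.

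The members and gene lists were chosen with earlier results of these data known, so the counts are not independent evidence. Named genes are all members, Bmal1, Npas2, Cry2, Hlf and Nfil3, and the 5 genes most and least like the members. Genes of the lists were also named at an unadjusted p under 0.05 in OVX vs. Sham or OVX-AS-IV-High vs. OVX, by edgeR. Tsc22d3 and Fkbp5 did not meet this rule (OVX vs. Sham, edgeR, unadjusted p = 0.209 and 0.113) and were named after the values were seen. Deviations of same-numbered libraries from their group means had correlations of 0.31, 0.158 and 0.13 between OVX and OVX-AS-IV-High. They were 0.2, -0.161 and 0.253 between Sham and OVX, and 0.314, -0.158 and 0.435 between Sham and OVX-AS-IV-High. These values do not settle whether replicate numbers pair any groups, and the methods describe independent replicates. The main fit therefore used no pairing, and the replicate block was an alternative. Alternatives were DESeq2 1.42.0, RLE size factors, no filter, fits of only the groups compared, the replicate block, a muscle covariate, limma 3.58.1 on log2(FPKM + 1) and log2(FPKM + 0.1), and leaving out each library. Promoters came from RefSeq GRCr8. Planned correlations between members over all libraries were not run, because the libraries fell into sets of 4 and 5. Scripts were checked on simulated data. Plots used matplotlib 3.10.9.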

Additional observations from a re-analysis of the deposited data

How the results depend on the processing

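The number of members with an unadjusted p under 0.05 lay between 7 and 8 for OVX vs. Sham, 8 and 9 for OVX-AS-IV-High vs. Sham and 7 and 9 among the 3 groups over all alternatives. In OVX-AS-IV-High vs. OVX it was 0 under all but 1 alternative, and 1 (Clock) without OVX-AS-IV-High replicate 3. Adjusted p-values depended on the tool and on the edgeR model, as the report gives for OVX-AS-IV-High vs. Sham. In OVX vs. Sham, the adjusted p of Nr1d1 lay between 3.25e-05 and 0.399 and that of Dbp between 0.0279 and 0.426. With the replicate number as a block, 8 members passed in OVX vs. Sham, the added one being Per1 (log2FC -0.89, unadjusted p = 0.0207). Between the treated and untreated OVX groups it was 0, and the block changed no call. No call of Per2, Per3, Nr1d1, Nr1d2, Dbp, Tef or Ciart against Sham was lost under any alternative, while Bmal1 and Npas2 lost theirs in OVX vs. Sham under several, among them the fit of only these 2 groups (unadjusted p = 0.0571 and 0.0595) and the block for Bmal1 (log2FC 1.24, unadjusted p = 0.0681). Against Sham, the calls of Bmal1 and Npas2 in OVX-AS-IV-High were also lost when a Sham library was left out.

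Small differences changed sign in OVX-AS-IV-High vs. OVX. Per1 was at 0.18 with the replicate block, at 0.22 with the block in the fit of only these 2 groups, and at 0.13 and 0.18 by limma with pseudocounts of 1 and 0.1, where Cry1 was at -0.03 and -0.04. Leaving out each library in turn gave log2FC ranges in this comparison of -0.44 to 0.68 for Per1, -0.70 to 0.09 for Per2, -0.55 to 0.01 for Per3, -0.20 to 0.41 for Nr1d2, -0.93 to 0.31 for Dbp, -0.64 to 0.19 for Tef, -0.33 to 0.50 for Ciart and -0.10 to 0.09 for Cry1. The ranges were -0.33 to 0.47 for Bmal1, -0.42 to 0.53 for Npas2, -0.07 to 0.22 for Cry2, -0.54 to 0.13 for Hlf, -0.61 to 0.02 for Bhlhe41 and -0.06 to 0.18 for Nfil3. For Nfil3 they were -0.18 to 0.16 for OVX vs. Sham and -0.08 to 0.27 for OVX-AS-IV-High vs. Sham. The cause of these shifts was not tested.

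No time of harvest was given, and each group held only 3 libraries. The edgeR p-values set each difference against a spread estimated from all libraries of a fit. Ciart rested on as few as 29 counts.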

Other observations

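Genes outside the members were ranked by how closely they followed the mean standardized log2 CPM of Per1, Per2, Per3, Nr1d1, Nr1d2, Dbp, Tef and Ciart over the 9 libraries, among 14469 genes with a mean of at least 1 CPM. The points share the division into sets of 5 and 4 libraries, and the correlations are given as a description. Hlf had the highest Pearson correlation (0.988), with counts of 291, 290 and 283 for the Sham libraries, 100, 102 and 217 for OVX, and 100, 118 and 106 after AS-IV. Bhlhe40 (0.964) was also among the first 5. The others of the first 5 were Slc39a7 (0.969), a zinc transporter, Scaf1 (0.957) and Dzip1l (0.946). Slc39a7 had only a small range, from 4119 to 4720 counts. At the other end stood Ubac2 (-0.950), Tubgcp5 (-0.946), Pcca (-0.928), Add3 (-0.928) and Tlr1 (-0.926). Bmal1 (-0.895) held place 19 from that end and Cry2 (0.90) place 30 from the top. In all, 30 genes had a correlation above 0.9 and 14 below -0.9.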
